A study of Mus musculus with 21 samples.

Results

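Hematopoietic stem cells (HSC) of mice homozygous for a mutation of Etv6 were compared with HSC of wild-type mice, gene by gene, in 7 of the 21 libraries of the series. Libraries were chosen by their labels alone: 4 are mutant HSC and 3 are wild-type HSC, and genes were kept where at least 3 of these 7 libraries reached 1 RPKM, which left 11212 of 11628 genes. RPKM is a gene's reads divided by its transcript length and by the reads of its library. The other 14 libraries are later progenitors of the same 2 genotypes, the MPP4 and the common lymphoid progenitor (CLP). They are used here for the estimate of spread and to ask where HSC differ from them.

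The mutation is written h.P214L in the series' description, and mutant mice carry it on both alleles. The study's title describes it as a germline mutation and asks about inflammation and lymphoid development of early progenitors. All HSC came from bone marrow and were sorted as cells without lineage markers that stained for c-Kit, Sca-1 and CD150 and were negative for FLK2 and, per the label, for CD38. In both genotypes replicates 1 and 2 are labelled 12 weeks old and replicate 3 is labelled 10 weeks old, with replicate 2 male and the others female. The mutant replicate 4 is a female labelled 12 weeks old. The description counts 3 wild-type and 4 mutant mice, so each HSC library is taken as 1 mouse.

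Etv6 is a transcriptional repressor of the ETS family, proteins that bind DNA at sequences built on the core GGAA. It can form chains of molecules through its pointed domain and recruits corepressors. In adult bone marrow Etv6 is known as a factor that stem cells need in order to persist, and inherited variants of the human gene are known for low platelet counts and a predisposition to lymphoid leukemia. HSC sit at the top of blood formation, mostly outside the cell cycle, and give rise to MPP4 cells, which lean toward the lymphoid and granulocyte-monocyte lineages, and through them to CLP.

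The sort was checked against marker transcripts. Slamf1, which encodes CD150, lay between 18.8 and 29.1 RPKM in the 7 HSC libraries and at no more than 3.20 RPKM in any MPP4 or CLP library. Procr, the endothelial protein C receptor used to mark stem cells, lay between 23.2 and 46.3 RPKM in HSC and at no more than 9.98 RPKM in MPP4 and CLP. Flt3, which encodes FLK2, lay between 10.7 and 17.5 RPKM in HSC and above 349 RPKM in every MPP4 and CLP library. Cd48, absent from the surface of the stem cell gate in common use, was at 2.83 to 6.36 RPKM in HSC and above 108 RPKM elsewhere. Marker levels thus went with the HSC label in all 7 libraries. Cd38 was the exception in direction: it lay at 3.87 to 10.5 RPKM in HSC, above the 1.14 to 2.59 RPKM of MPP4, although the label gives the cells as CD38-negative.

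Some libraries carried RNA of other lineages, and 1 stood apart. Libraries correlated at 0.966 to 0.984 within a genotype and at 0.966 to 0.987 between genotypes (Pearson, log2 scale, over genes, which are not independent). On the first principal component, with 31.1% of the variance, wild-type replicate 3 lay at -28.0 and the other 6 libraries between -6.61 and 14.8. That library also had the most genes under 0.3 RPKM, 298 against 77 to 142. Globin transcripts peaked in the male replicate 2 of each genotype: Hbb-bs, a beta globin, stood at 16.1, 1696, 366 and 45.7 RPKM in mutant libraries 1 to 4 and at 63.2, 2357 and 83.5 RPKM in wild-type libraries 1 to 3. S100a8, which encodes a protein abundant in neutrophils, stood at 1.86, 70.4, 3.05 and 3.03 RPKM in the mutant and at 39.4, 553 and 5.67 RPKM in the wild type, so that wild-type replicate 2 was highest. Near-identical globin genes share reads, so a single globin is uncertain. These genes were chosen after their values were seen.

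**Figure D1:**
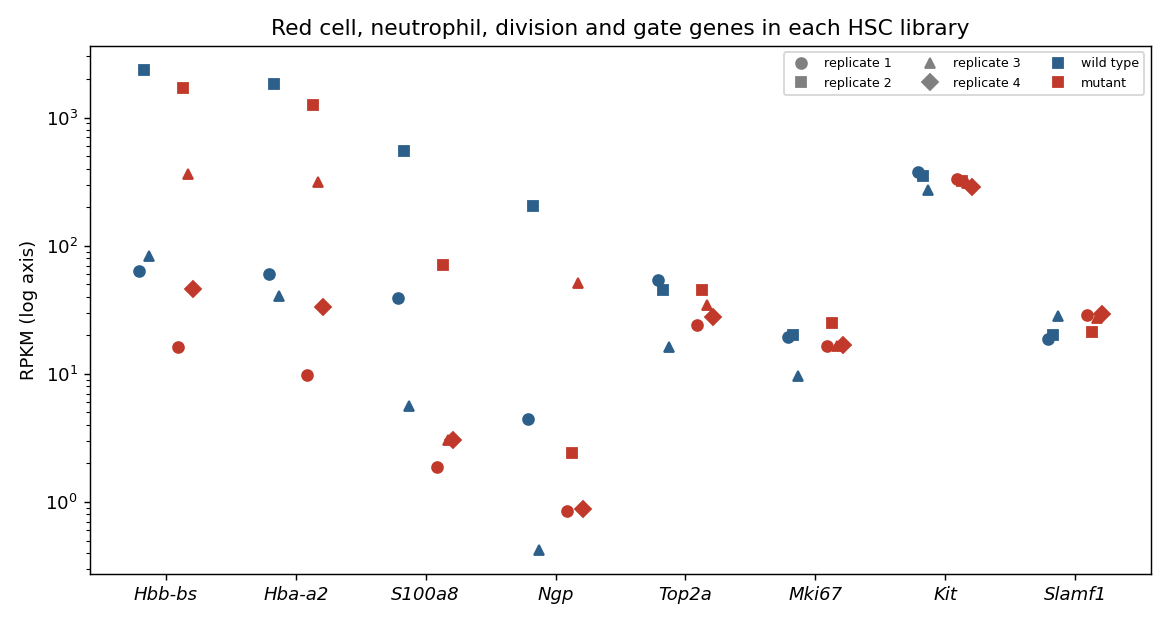
RPKM (vertical log axis) of 8 genes in each of the 7 HSC libraries, blue for wild type and red for mutant, with the symbol giving the replicate. Red cell and neutrophil genes range widely among libraries of 1 genotype, with the squares of replicate 2 highest for Hbb-bs, Hba-a2 and S100a8, while Kit and Slamf1 lie close together in all 7 libraries.

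Etv6 itself (chromosome 6, 134035700 to 134270158, GRCm38.p6) was measured at 111, 109, 94.2 and 107 RPKM in mutant libraries 1 to 4 and at 109, 121 and 109 RPKM in wild-type libraries 1 to 3. The genotypes overlapped. Its difference, mutant minus wild type on log2(RPKM + 1), was -0.10, and permuting the genotype labels in all 35 ways gave an exact two-sided p of 0.4, where the smallest p possible is 0.0286. A substitution need not alter the amount of its transcript, and RPKM values hold no alleles, so this level does not check the genotype labels.

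Mutant HSC differed from wild-type HSC at few genes. In limma's test on log2(RPKM + 1), with Benjamini-Hochberg adjustment over 11212 genes, 6 genes passed an adjusted p under 0.05, which is 0.0535% of those tested. Of these, 5 were lower in the mutant (0.0446%) and 1 was higher (0.00892%). The 5 lower genes were Gmfg, Smim5, Plac8, Sox18 and Fam105a, and the higher one was Matn4. All 6 showed no overlap between the 4 mutant and the 3 wild-type values. That alone fixes their direction within each of the 3 combinations of labelled age and sex, so those combinations are no further check. Across the whole table, 507 genes (4.52%) had an unadjusted p under 0.05, 319 of them higher (2.85%) and 188 lower (1.68%), and the median difference was 0.01. The threshold of 0.05 alone would give 561 genes if none differed, so the 507 are no excess.

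**Figure D2:**
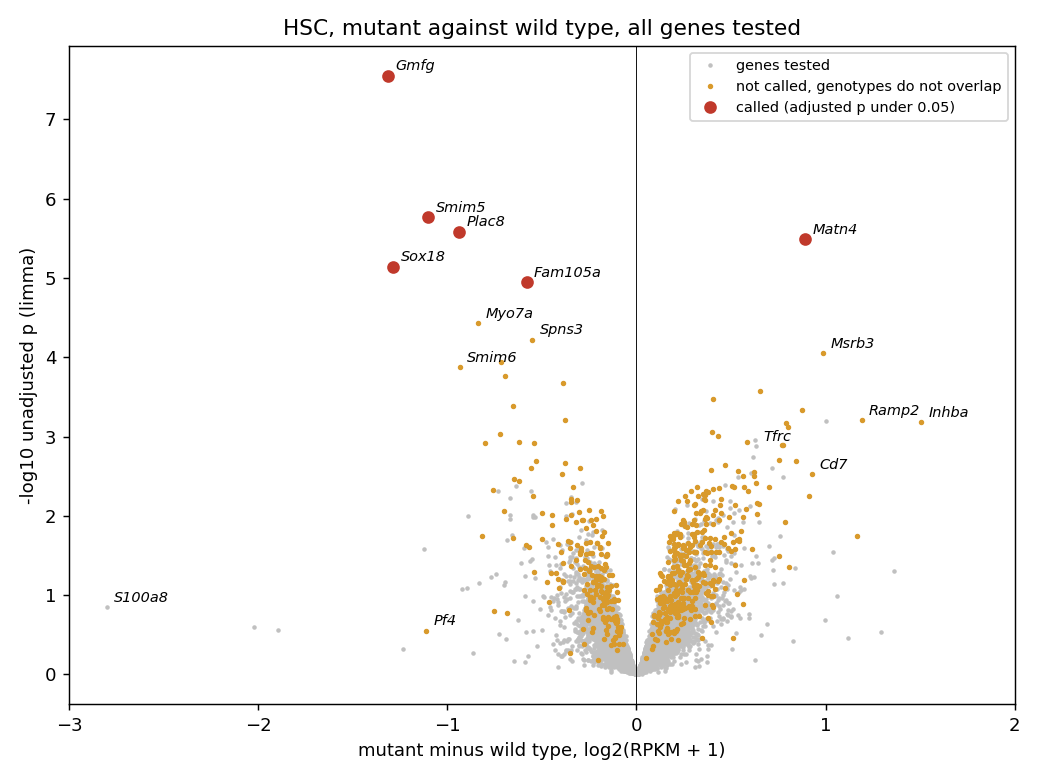
Each point is 1 of the 11212 genes tested, with the mutant minus wild-type difference on log2(RPKM + 1) on the horizontal axis and -log10 of the unadjusted limma p on the vertical axis. The 6 called genes (red) lie above the rest, 5 to the left and Matn4 to the right; gold points are genes whose genotypes do not overlap but that were not called, and S100a8 lies far left with a large spread.

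The actin regulator Gmfg (chromosome 7, 28437469 to 28448230) fell the furthest beyond its spread. Its product, glia maturation factor gamma, is the blood-cell member of a family that takes apart branched actin networks by acting on the Arp2/3 complex. Gmfg stood at 30.5, 29.3, 32.1 and 43.7 RPKM in mutant libraries 1 to 4 and at 80.3, 70.3 and 108 RPKM in wild-type libraries 1 to 3. Every mutant value lay well under the lowest wild-type value, and the highest mutant value was that of replicate 4. The mutant mean was 39.3% of the wild-type mean, and the difference was -1.32 ± 0.15 (SE; limma adjusted p = 3.16e-04). It remained called whichever single HSC library was left out, with adjusted p from 5.6e-05 to 0.00437.

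Other actin genes gave no such difference. Of 38 measured genes for branching, severing and capping of actin, 20 had a positive and 18 a negative difference, with a median of 0.01 beside 0.01 over all genes, and Gmfg was the only one called. Gmfb, the paralog of Gmfg, stood at 38.0, 33.0, 42.7 and 39.9 RPKM in the mutant and at 47.0, 34.4 and 31.1 RPKM in the wild type. Arpc2, a subunit of the Arp2/3 complex, had a difference of -0.03, and Actr3, another, of 0.07. Tmsb4x, thymosin beta 4, which binds actin monomers, was at 455, 608, 675 and 673 RPKM against 652, 744 and 880 RPKM. Its genotypes overlapped in mutant replicates 3 and 4, and its difference of -0.34 did not pass (adjusted p = 1). Rac2, a GTPase of blood cells that drives actin assembly, was at -0.17, and Lcp1, an actin bundler, at 0.15, neither of them called.

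Smim5 (chromosome 11, 115897806 to 115906269), which encodes a small membrane protein, fell in mutant HSC. It stood at 18.8, 25.1, 24.0 and 18.0 RPKM in the mutant and at 35.8, 57.2 and 49.6 RPKM in the wild type. The lowest wild-type library, replicate 1, still lay above the highest mutant library. The difference was -1.10 ± 0.16 (SE; limma adjusted p = 0.00902), and the mutant mean was 45.1% of the wild-type mean. Smim5 missed the threshold without wild-type replicate 2 (adjusted p = 0.0774) or replicate 3 (adjusted p = 0.0571). Smim6, another small membrane protein gene 5.7 kb away, stood at 11.8, 11.2, 14.3 and 14.0 RPKM against 20.1, 21.8 and 36.7 RPKM. Its genotypes did not overlap either, but its difference of -0.93 was not called (adjusted p = 0.137). Both small genes lie inside the span of Recql5, a DNA helicase gene whose own difference was -0.01; the library kit does not mark strand, so reads of overlapping genes cannot be told apart.

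Plac8 (chromosome 5, 100551589 to 100572253) is a small cysteine-rich protein of myeloid cells and lymphoid-primed progenitors, and it fell as well. Its mutant values were 34.3, 35.8, 32.8 and 35.9 RPKM and its wild-type values 54.4, 62.7 and 89.2 RPKM. The 4 mutant libraries lay close together, whereas the wild-type libraries spread widely with replicate 3 highest. The difference was -0.94 ± 0.14 (SE; limma adjusted p = 0.00902) and missed the threshold without wild-type replicate 3 (-0.74, adjusted p = 0.0571). Wild-type replicate 2, the library highest for S100a8, held the middle wild-type value of Plac8.

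Sox18 (chromosome 2, 181669837 to 181671640), a transcription factor of developing blood and lymph vessels, fell to 37.0% of the wild-type mean. It stood at 4.31, 2.72, 3.33 and 7.19 RPKM in the mutant and at 8.77, 11.03 and 15.8 RPKM in the wild type. Mutant replicate 4 came closest to the wild type, and the genotypes did not overlap. The difference of -1.29 ± 0.21 (SE; limma adjusted p = 0.0161) is the second largest among the called genes. Sox18 missed the threshold without mutant replicate 2 (adjusted p = 0.0531), mutant replicate 3 (0.0700), wild-type replicate 2 (0.0774) or wild-type replicate 3 (0.10), and with a pseudocount of 0.5 (0.0623) or 0.1 (0.862).

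The remaining gene that fell, Fam105a (chromosome 15, 27655070 to 27681603; Otulinl in current annotation), encodes a relative of the deubiquitinase OTULIN without its catalytic activity. It stood at 5.46, 5.01, 4.29 and 5.26 RPKM in the mutant and at 7.27, 8.05 and 8.61 RPKM in the wild type. Both genotypes were tight and did not overlap, and the difference was the smallest of the called ones at -0.58 ± 0.10 (SE; limma adjusted p = 0.0211). It missed the threshold without mutant replicate 2 (adjusted p = 0.0531), mutant replicate 3 (0.0849), wild-type replicate 2 (0.127) or wild-type replicate 3 (0.10).

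Matn4 (chromosome 2, 164389393 to 164405160) was the single gene that rose. It encodes matrilin-4, a secreted matrix protein studied in mouse HSC as a restraint on their proliferation under stress. Matn4 stood at 4.01, 2.29, 3.12 and 3.51 RPKM in the mutant and at 0.962, 1.16 and 1.71 RPKM in the wild type. The mutant mean was 2.54 times the wild-type mean, and even the lowest mutant library, replicate 2, lay above all wild-type libraries. The difference was 0.89 ± 0.14 (SE; limma adjusted p = 0.00902). The wild-type level was close to the filter, at the 2.3rd percentile of genes by wild-type mean, and Matn4 missed the threshold with a pseudocount of 0.1 (adjusted p = 0.894). The same held without wild-type replicate 1 (0.0784) or replicate 2 (0.0774).

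**Figure D3:**
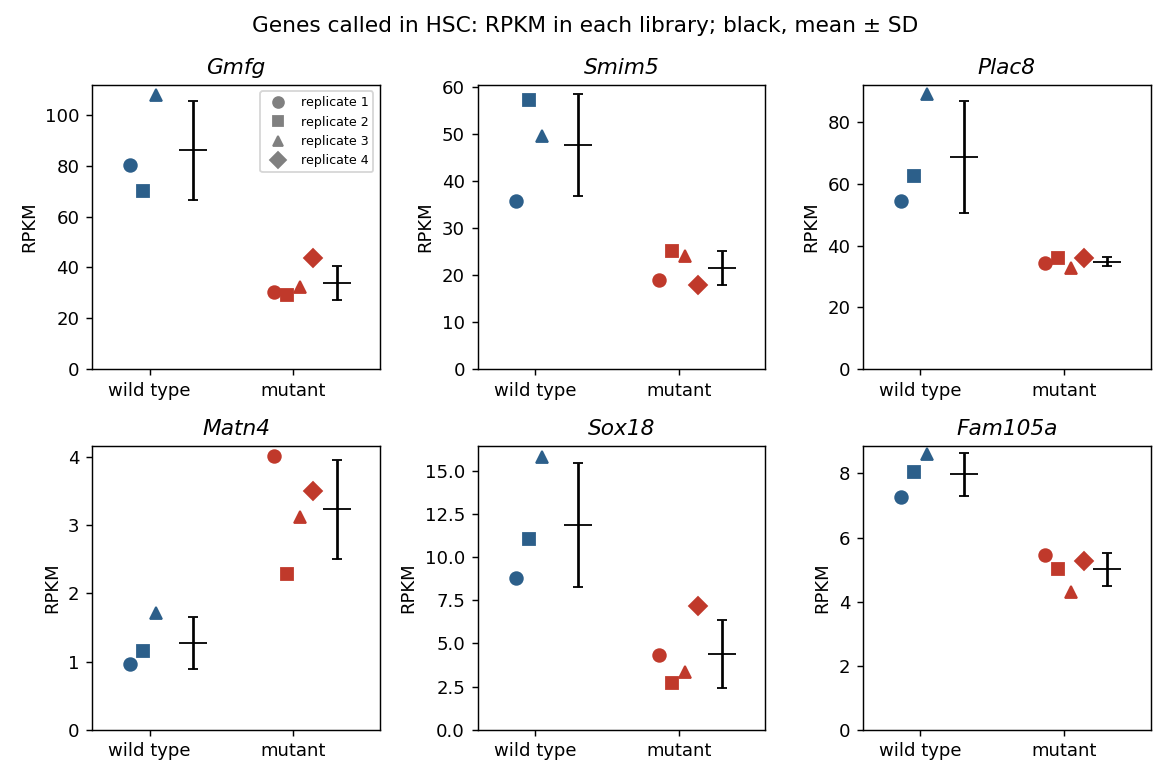
RPKM (vertical axes from 0) of the 6 called genes in the 3 wild-type (blue) and 4 mutant (red) HSC libraries, with symbols for the replicate and black bars for mean ± SD. No mutant point overlaps a wild-type point in any panel; Gmfg, Smim5, Plac8, Sox18 and Fam105a are lower and Matn4 is higher in the mutant.

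All of these tests take their spread from the 21 libraries of the series. A fit of the 7 HSC libraries alone, with the same differences, called 0 genes: the adjusted p was 0.170 for Gmfg, 0.308 for Smim5 and for Plac8, 0.629 for Matn4 and for Sox18, and 0.675 for Fam105a, while 431 genes had an unadjusted p under 0.05. For Matn4 and Sox18 the shared spread draws on MPP4 and CLP libraries in which both genes were hardly present. The SE of Matn4 was 0.139 in the main fit and 0.189 in HSC alone, and that of Sox18 0.213 and 0.271. The other called genes also had a larger SE in HSC alone. How far the calls of Matn4 and Sox18 rest on those near-empty libraries was not tested. Without wild-type replicate 3, the library that stood apart, 2 genes were called, Gmfg and Matn4. Without wild-type replicate 2, the library richest in neutrophil and globin RNA, 3 genes were called: Gmfg, Plac8 and Col18a1.

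The DNA before the start sites of the called genes is shown because Etv6 acts through the ETS core. The RefSeq promoter windows of GRCm38.p6 were searched for GGAA on both strands in the 250 bases before the start, and capitals mark GGAA or its reverse complement TTCC. Only bases outside the annotated gene models are printed, 5′ to 3′ on the strand of the gene, and Smim5 and Sox18 had no entry in the table of windows.
Gmfg, plus strand, chr7:28437219-28437468: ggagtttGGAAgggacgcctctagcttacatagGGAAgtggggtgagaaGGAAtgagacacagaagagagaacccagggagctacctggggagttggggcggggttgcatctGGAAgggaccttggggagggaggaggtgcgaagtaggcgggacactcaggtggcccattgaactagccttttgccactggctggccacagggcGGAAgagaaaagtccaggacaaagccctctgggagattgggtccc
Plac8, minus strand, chr5:100572254-100572455: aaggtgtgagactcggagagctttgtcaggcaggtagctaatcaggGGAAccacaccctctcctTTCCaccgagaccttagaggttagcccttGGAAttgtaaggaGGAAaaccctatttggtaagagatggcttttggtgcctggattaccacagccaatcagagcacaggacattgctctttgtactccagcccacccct
Fam105a, minus strand, chr15:27681604-27681792: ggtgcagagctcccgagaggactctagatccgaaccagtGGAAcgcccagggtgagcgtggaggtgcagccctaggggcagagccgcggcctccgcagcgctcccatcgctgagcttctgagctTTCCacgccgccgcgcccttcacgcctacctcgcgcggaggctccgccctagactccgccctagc
Matn4, minus strand, chr2:164405161-164405410: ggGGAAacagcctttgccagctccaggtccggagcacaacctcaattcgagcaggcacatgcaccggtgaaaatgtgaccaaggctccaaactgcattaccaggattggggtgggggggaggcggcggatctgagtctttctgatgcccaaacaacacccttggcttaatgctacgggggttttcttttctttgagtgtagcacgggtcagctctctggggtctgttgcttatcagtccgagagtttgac
The printed bases hold 5 matches before Gmfg, 4 before Plac8, 2 before Fam105a and 1 before Matn4. In the full 250 bases of the same windows the counts were 5, 5, 2 and 1. Gmfg, Plac8 and Matn4 each have a second window, which lies inside the gene model and is not printed. Those windows hold 5, 7 and 6 matches in 250 bases. Such matches are common: 93.4% of all 32851 windows and 93.3% of the windows of genes tested in HSC hold at least 1, with a median of 3. The longer form CGGAAG, which contains GGAA, occurs 1 time before Gmfg and in none of the other printed sequences; 13.6% of all windows and 26.1% of those of tested genes hold it. A match is a stretch of letters and no measurement of binding.

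No gene near the called ones was itself called. Within 100 kb of the 6 genes lay 31 tested genes, 15 of them with a positive difference, and 0 were called. Unadjusted p fell under 0.05 for 2 of them, Smim6 and Rgs19, a regulator of G-protein signalling near Sox18. Around Etv6, 32 genes within 5 Mb were tested. Of these, 19 had positive differences, 0 were called, and 1, Clec1a, had an unadjusted p under 0.05. Genotypes did not overlap in 4 of the 32, beside 5.18% of all genes tested. The median difference of the 32 was 0.09, beside 0.01 over all genes.

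The called genes were then followed into the later progenitors. Gmfg stood at 149 ± 17.84 RPKM (SD, n = 3) in wild-type and 118 ± 12.96 RPKM (SD, n = 4) in mutant MPP4, a difference of -0.34 ± 0.15 (SE; limma adjusted p = 0.582), and in CLP the difference was 0.07 ± 0.15. The difference of effects on Gmfg, HSC minus CLP, was -1.38 (limma adjusted p = 0.0263 over all genes), the only gene of 11212 (0.00892%) called in that comparison, where 3.59% of genes had an unadjusted p under 0.05. That call was lost without mutant replicate 1 (adjusted p = 0.0942), 2 (0.0581) or 3 (0.0857), or without wild-type replicate 3 (0.0653). Against MPP4 the difference of effects on Gmfg was -0.98 and did not pass (adjusted p = 0.337), and 0 of 11212 genes were called by limma in that comparison, with 398 (3.55%) at an unadjusted p under 0.05.

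Plac8 had a difference of -0.55 ± 0.14 (SE; adjusted p = 0.185, limma) in MPP4, where its level was 733 ± 106 RPKM (SD, n = 3) in the wild type, and 0.09 in CLP. Fam105a was at -0.36 in MPP4 and -0.17 in CLP. Smim5 was at -0.20 in MPP4 and 0.23 in CLP, and its effects in HSC and CLP did not pass as different (-1.33, limma adjusted p = 0.0761). Matn4 and Sox18 were hardly present outside HSC: their mean levels in MPP4 and CLP were at most 0.05 RPKM for Matn4 and at most 0.40 RPKM for Sox18. A difference in those cells could not have been seen at such levels. Apart from Gmfg against CLP, then, no called gene was shown to respond differently in HSC and in the later cells.

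**Figure D4:**
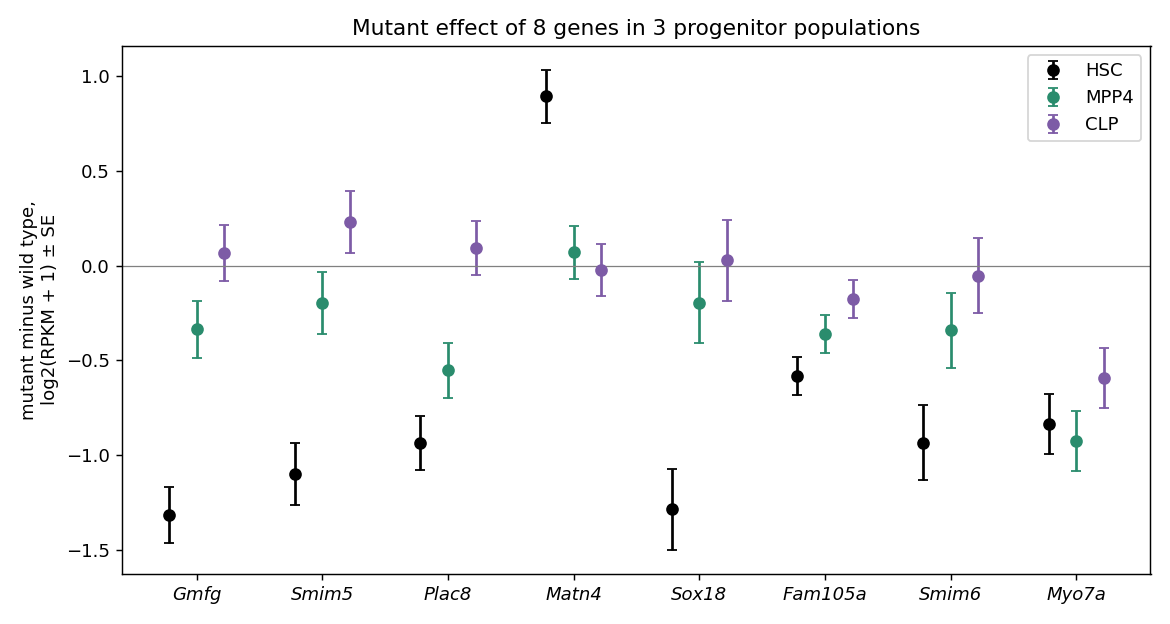
Mutant minus wild-type difference on log2(RPKM + 1) ± SE (limma) for the 6 called genes, Smim6 and Myo7a in HSC (black), MPP4 (green) and CLP (purple). Gmfg is far below 0 in HSC and near 0 in CLP, whereas Myo7a is below 0 in all 3 populations.

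In all, 364 genes had all mutant values above all wild-type values (3.25% of those tested) and 217 had them all below (1.94%), together 5.18%; without the 6 called genes these were 363 and 212. Most of these differences were small, with medians of 0.27 and -0.23. A single split out of the 35 possible ones puts all mutant values on a given side, a share of 0.0286. Lack of overlap alone is thus about as frequent as among genes without an effect, and it is given throughout only as a description. Myo7a, an unconventional myosin, came closest to a call: it stood at 2.46, 2.71, 3.72 and 3.54 RPKM in the mutant and at 4.84, 7.71 and 6.53 RPKM in the wild type. Its difference was -0.84 ± 0.16 (SE; limma adjusted p = 0.0600). Of 20 alternatives 7 called it: median-ratio scaling, quantile normalization, library weights, the sex term, the sex and age terms, the replicate block and the fit without wild-type replicate 1. Over all 20 its adjusted p ran from 0.00484 to 1. In MPP4, where 0.0981% of genes were called, Myo7a was among them at -0.93 (limma adjusted p = 0.0233), and in CLP it was at -0.59 without passing (adjusted p = 0.919).

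The 11 genes that followed Myo7a on the lower side, none of them called, include several surface and transport proteins. Spns3, of a family of sphingolipid transporters, stood at 23.4, 21.015, 20.7 and 16.1 RPKM in the mutant and at 29.4, 32.9 and 27.8 RPKM in the wild type (difference -0.55, limma adjusted p = 0.0843). Thbd, thrombomodulin, an anticoagulant receptor, stood at 1.82, 2.52, 2.16 and 1.83 RPKM against 4.79, 4.32 and 2.99 RPKM. For both, every mutant library was below every wild-type library, as in every gene of this set, which was chosen by that rule. Cd37, a tetraspanin of leukocytes, was at 16.8 to 18.6 RPKM in the mutant and 22.2 to 25.4 RPKM in the wild type. Col18a1, the chain of collagen XVIII, had a difference of -0.71, Slc52a3, a riboflavin transporter, of -0.72, and Slc6a13, a transporter of GABA, of -0.80. Smim6, Emid1, Arl11, Carns1, which makes carnosine, and Dtnbp1, dysbindin, complete the set, with differences from -0.93 to -0.38.

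On the higher side, Msrb3, a methionine sulfoxide reductase, came first among the uncalled genes. It stood at 4.55, 3.95, 6.66 and 7.20 RPKM in the mutant and at 2.55, 1.62 and 2.70 RPKM in the wild type, a difference of 0.99 ± 0.20 (SE; limma adjusted p = 0.111). Inhba, which encodes the subunit of activin A, had the largest difference of this set at 1.51 ± 0.37 (SE; limma adjusted p = 0.341), from 4.92, 4.11, 8.42 and 10.9 RPKM against 1.16, 1.00 and 3.50 RPKM. Ramp2, the partner protein of the adrenomedullin receptor, stood at 8.04, 7.25, 10.1 and 12.0 RPKM against 1.90, 3.12 and 6.42 RPKM. In each of the 3 genes wild-type replicate 3 was the wild-type library nearest the mutant. The other 9 were Tctn2 of the ciliary transition zone, Tmem50b, Sbspon, Slc37a3, the receptor Gprc5c, the aminoacylase Acy1, the glucuronosyltransferase Ugt1a7c, the peptide-amidating enzyme Pam and the glutathione transferase Gstm2, with differences from 0.40 to 0.88. Ugt1a7c shares exons with its family, so its value is uncertain. Sbspon and Gprc5c passed the filter through mutant libraries alone. Their wild-type values were 0.654 to 0.944 RPKM for Sbspon and 0.280 to 0.626 RPKM for Gprc5c. Slc37a3 stood at 1.11, 0.377 and 0.582 RPKM in wild-type libraries 1 to 3.

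Some genes did not overlap between genotypes, in the same direction, in HSC, MPP4 and CLP alike. They were found by looking through all values, so they carry no test; whether the 3 populations came from the same mice was not settled. On the lower side were Myo7a, Gimap6 and Gimap7, and on the higher side Lrrfip2, Vangl1, a planar cell polarity protein, and Hnrnpll, an RNA-binding splicing regulator of lymphocytes. Of the 217 genes wholly lower in mutant HSC, 12.0% were also wholly lower in MPP4, beside 3.24% of all genes wholly lower in MPP4. The shared genes are 7.16% of the MPP4 set of 363, beside 1.94% of all genes wholly lower in HSC. In CLP 3.69% of the 217 were wholly lower, beside 2.13% of all genes. Of the 364 genes wholly higher in mutant HSC, 13.7% were also wholly higher in MPP4, beside 6.80% of all genes wholly higher in MPP4. The shared genes are 6.56% of the MPP4 set of 762, beside 3.25% of all genes wholly higher in HSC. In CLP 2.47% of the 364 were wholly higher, beside 1.94% of all genes. Labelled age and sex match by replicate number across the 3 populations except for mutant replicate 4. That replicate is labelled 10 weeks old in CLP and 12 weeks old in HSC and MPP4. The main fit treated all 21 libraries as independent, and the part of shared mice in these overlaps was not tested.

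Gimap6 and Gimap7 belong to a cluster of GTPase genes known for the survival of lymphocytes. Gimap7 stood at 2.25, 1.91, 1.82 and 2.81 RPKM in mutant HSC libraries 1 to 4 and at 3.64, 5.19 and 3.79 RPKM in wild-type libraries 1 to 3. Gimap6 stood at 137, 122, 142 and 145 RPKM against 148, 154 and 263 RPKM, with mutant replicate 4 just under wild-type replicate 1. Of the 8 family members tested, 8 had negative differences in HSC (median -0.32), 7 in MPP4 (median -0.50) and 8 in CLP (median -0.67), and 0 were called in any population. An unadjusted p under 0.05 was reached by 2 members in HSC, 3 in MPP4 and 6 in CLP, beside 4.52%, 7.93% and 4.21% of all genes. All these counts include Gimap6 and Gimap7, which were picked for not overlapping. The 2 members in HSC are these same genes, so that count says nothing about the rest of the family.

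None of the 14 gate and surface genes and none of the stem cell genes was called. Kit stood at 333, 321, 307 and 290 RPKM in the mutant and at 375, 350 and 271 RPKM in the wild type, and Ly6a, which encodes Sca-1, at 57.8, 58.5, 90.7 and 105 RPKM against 48.5, 71.8 and 140 RPKM. Both overlapped, with differences of -0.08 for Kit and -0.06 for Ly6a. Slamf1 had a difference of 0.24, Procr of 0.25, Cd34 of 0.13, Flt3 of -0.10, Cd48 of -0.20 and Cd38 of -0.59 (limma adjusted p = 0.964). Among 43 stem cell genes, 24 had positive and 19 negative differences, with a median of 0.05 and 0 called. Mecom, a transcription factor that HSC require, was at 40.6, 26.8, 35.0 and 35.3 RPKM against 28.2, 20.8 and 27.1 RPKM, overlapping in mutant replicate 2. Eya1, a transcriptional coactivator, had a difference of 0.29 that did not pass (limma adjusted p = 1). Without wild-type replicate 3 the stem cell median was 0.19, with 34 of 43 positive, and without wild-type replicate 1 it was -0.04, with 17 positive.

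No other ETS factor was called. Of 18 measured members 11 had positive and 7 negative differences, with a median of 0.07 and 0 called. Ets1 stood at 6.78, 9.04, 7.40 and 8.95 RPKM in the mutant against 5.46, 6.60 and 6.21 RPKM, and Elf1 at 53.4, 54.5, 59.4 and 54.0 RPKM against 67.1, 61.5 and 61.1 RPKM. Neither overlapped, and neither passed: Ets1 had a difference of 0.35 (limma adjusted p = 0.964) and Elf1 of -0.19 (limma adjusted p = 0.841). Erg, an ETS factor central to HSC, was at 0.20.

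Lymphoid genes, which the study's title names, were measured at low levels in HSC. Of 27 lymphoid-primed genes 18 had negative and 9 positive differences, with a median of -0.08 beside 0.01 over all genes, and Plac8 was the 1 called. The mean log2(RPKM + 1) over the list was 3.32, 3.35, 3.34 and 3.40 in mutant libraries 1 to 4 and 3.41, 3.58 and 3.61 in wild-type libraries 1 to 3. Without Plac8, an exclusion chosen after seeing the values, the other 26 genes had means of 3.25, 3.28, 3.27 and 3.335 in the mutant and 3.315, 3.49 and 3.50 in the wild type, so that mutant replicate 4 lay above wild-type replicate 1. Dntt, the DNA polymerase of early lymphoid cells, was at 1.75, 3.29, 1.56 and 4.07 RPKM against 4.49, 5.06 and 3.01 RPKM, overlapping in mutant replicates 2 and 4. Only 10 of 28 B-lineage genes and 10 of 29 T, NK and innate lymphoid genes were tested, and 0 were called in either list. Among these, Cd7, a surface protein of T and NK cells, stood at 1.09, 0.951, 2.22 and 1.55 RPKM in the mutant against 0.109, 0.346 and 0.356 RPKM. It was not called on the main scale (difference 0.93, limma adjusted p = 0.686) but was with a pseudocount of 0.1 (adjusted p = 0.0399). Cd7 passed the filter through mutant libraries alone, and that call rests on wild-type values well under 1 RPKM, so it carries little weight. Vpreb1, a surrogate light chain, was at 0.693 to 1.64 RPKM in the mutant and 1.91 to 3.90 RPKM in the wild type without passing (limma adjusted p = 1).

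Genes of inflammation, the other subject of the title, gave no call. Of 60 interferon-stimulated genes 38 had negative differences, with a median of -0.05, which became 0.04 without wild-type replicate 3 and 0.03 without mutant replicate 2, each with 24 negative. It was -0.12 without mutant replicate 4 or without wild-type replicate 2. Psmb8, an immunoproteasome subunit, stood at 224, 244, 235 and 277 RPKM in the mutant and at 293, 285 and 305 RPKM in the wild type. It did not overlap, and its difference of -0.27 did not pass (limma adjusted p = 0.964). Among 42 genes of the NF-kB and TNF response 22 were positive and 20 negative, with a median of 0.02. Nfkb1, the p105 and p50 subunit, was at 25.4 to 28.4 RPKM in the mutant against 29.2 to 35.0 RPKM (difference -0.27, limma adjusted p = 0.913). The 40 cytokine and Toll-like receptor genes had a median of 0.01, with 21 positive and 19 negative.

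Platelet genes, of interest because inherited ETV6 variants lower platelet counts, were not called either. Of 32 measured members 19 had negative differences, with a median of -0.05. Pf4, platelet factor 4, stood at 43.5, 46.2, 31.8 and 38.6 RPKM in the mutant and at 94.6, 121 and 57.1 RPKM in the wild type. All mutant values lay under all wild-type values, a pattern of 1.94% of all genes. Its difference was -1.11 with an SE of 1.00, and the spread is shared with MPP4, where Pf4 ran from 1.10 to 150 RPKM; in the fit of HSC alone the SE was 0.22 and the adjusted p 0.629. Slc35d3, a transporter of platelet dense granules, was at 0.513 to 1.66 RPKM against 1.96 to 3.21 RPKM (difference -0.82, limma adjusted p = 0.964). Itga2b, the platelet integrin CD41, was at 27.9 to 32.9 RPKM against 31.4 to 59.7 RPKM and overlapped.

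Erythroid and neutrophil lists moved with single libraries. Of 33 erythroid genes 21 were positive, with a median of 0.13, which was 0.36 without wild-type replicate 2 and -0.03 without mutant replicate 2, the pair that was highest in globins. Tfrc, the transferrin receptor, stood at 9.08, 8.76, 10.8 and 6.71 RPKM in the mutant and at 7.11, 5.64 and 3.57 RPKM in the wild type, overlapping in mutant replicate 4 (difference 0.63, limma adjusted p = 0.433). Of 21 neutrophil granule genes 16 were negative, with a median of -0.29 and 1 called, Plac8, and without wild-type replicate 2 the median was -0.10 with 11 of 19 negative. The summed level of the 25 list genes in the table was 3473 RPKM in wild-type replicate 2 and between 1642 and 1847 RPKM in the other 6 libraries. Csf3r, the receptor for granulocyte colony-stimulating factor, stood at 25.3, 26.6, 22.3 and 16.8 RPKM in the mutant and at 29.1, 55.7 and 35.5 RPKM in the wild type. Its genotypes did not overlap, and its difference of -0.76 did not pass (limma adjusted p = 0.750). The part of neutrophil RNA in these differences was not tested beyond leaving that library out.

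Monocyte and antigen-presentation genes lay mostly on the lower side. Among 22 monocyte and macrophage genes 16 were negative, with a median of -0.13, and among 19 dendritic cell and MHC class II genes 15 were negative, with a median of -0.15. Single libraries moved both: the monocyte median was -0.03 with 13 negative without mutant replicate 1 and -0.32 without mutant replicate 3, and over all libraries left out in turn the dendritic median ran from -0.28 (without mutant replicate 4) to -0.12. No member of either list was called. Irf8, the transcription factor of monocytes and dendritic cells, stood at 1.23, 0.761, 1.55 and 1.46 RPKM in the mutant and at 1.91, 2.57 and 2.23 RPKM in the wild type. H2-DMa, which helps load peptides on MHC class II, stood at 67.4, 78.0, 67.4 and 79.5 RPKM against 83.0, 88.3 and 109 RPKM. In neither gene did the genotypes overlap, and neither passed: Irf8 had a limma adjusted p of 0.609 and H2-DMa of 0.797. Bulk RNA cannot tell fewer such cells from less RNA per cell.

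Sox18 and Matn4 are also genes of vessels and matrix, so the markers of those cells were read beside them. Of 41 endothelial and stromal genes 18 were tested, 9 positive and 9 negative, with a median of 0.01; Sox18 and Matn4 are members of the list. Plvap and Stab2, markers of vessel and sinusoid lining, did not reach the filter. The summed level of the 20 genes in the table lay between 444 and 512 RPKM in the mutant and between 435 and 598 RPKM in the wild type. Esam, a junction protein also used to mark HSC, was at 84.7 to 95.1 RPKM in the mutant against 97.5 to 132 RPKM, without overlap (difference -0.28, limma adjusted p = 1). Col1a2, a collagen chain of stromal cells, was at 1.38 to 4.24 RPKM and 0.974 to 2.91 RPKM. The part of such cells in the Sox18 and Matn4 differences was not tested.

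Cell cycle genes gave no stable direction. Of 50 proliferation genes 33 were positive, with a median of 0.04; leaving out wild-type replicate 3 turned the median to -0.28 with 2 positive, and leaving out wild-type replicate 1 gave 0.21 with 48 positive. Mki67, a marker of dividing cells, stood at 16.4, 25.0, 16.5 and 17.0 RPKM in the mutant and at 19.4, 20.2 and 9.60 RPKM in the wild type. Tob1, an antiproliferative protein, stood at 19.6, 17.4, 22.2 and 20.3 RPKM against 13.8, 9.91 and 17.2 RPKM. Its genotypes did not overlap, and its difference of 0.54 did not pass (limma adjusted p = 0.673). Cdk6, a kinase of the exit from quiescence, was at 39.2, 45.2, 25.7 and 29.0 RPKM against 42.1, 67.0 and 44.4 RPKM, and Cdkn1a, the inhibitor p21, at 0.701, 1.96, 0.547 and 1.15 RPKM against 1.78, 2.48 and 2.23 RPKM. Both overlapped in mutant replicate 2, and neither passed (limma adjusted p = 0.841 for Cdk6 and 0.749 for Cdkn1a).

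Large lists that shared 1 direction changed most when wild-type replicate 3 was left out. Of 83 cytoplasmic ribosomal protein genes 82 were negative, with a median of -0.16 and 0 called, and without wild-type replicate 3 the median was 0.00 with 42 negative. Quantile normalization left 65 of 83 negative with a median of -0.04. Their summed level was 41970 RPKM in wild-type replicate 3 and between 26907 and 33795 RPKM in the other 6 libraries. Of 90 oxidative phosphorylation genes 77 were negative, with a median of -0.09, which was -0.01 with 52 negative without wild-type replicate 3. The unfolded protein response differed from these: 23 of 30 genes were negative with a median of -0.09, and without wild-type replicate 3 the median was -0.18 with 22 negative. Hspa5, the chaperone BiP, stood at 122, 154, 162 and 114 RPKM in the mutant and at 181, 196 and 154 RPKM in the wild type, and Manf, a secreted protein of the same response, at 15.7, 20.7, 18.8 and 17.4 RPKM against 21.8, 24.1 and 21.5 RPKM. Hspa5 overlapped in mutant replicate 3 and Manf did not overlap, and 0 genes of the list were called (limma adjusted p = 0.964 for Hspa5 and 0.841 for Manf).

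The other 5 lists held 0 called genes. The 23 p53 target genes had a median of 0.09 with 14 positive, the 31 quiescence genes and G1 regulators 0.03 with 19 positive, and the 28 immediate early and heat shock genes 0.02 with 16 positive. For the 33 genes of homing and adhesion the median was -0.07 with 13 positive and the 11 mast cell and basophil genes 0.03 with 6 positive, a value that was 0.37 without mutant replicate 1 and -0.11 without wild-type replicate 1. Leaving out 1 library in turn changed the sign of the median in 13 of the 25 lists.

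**Figure D5:**
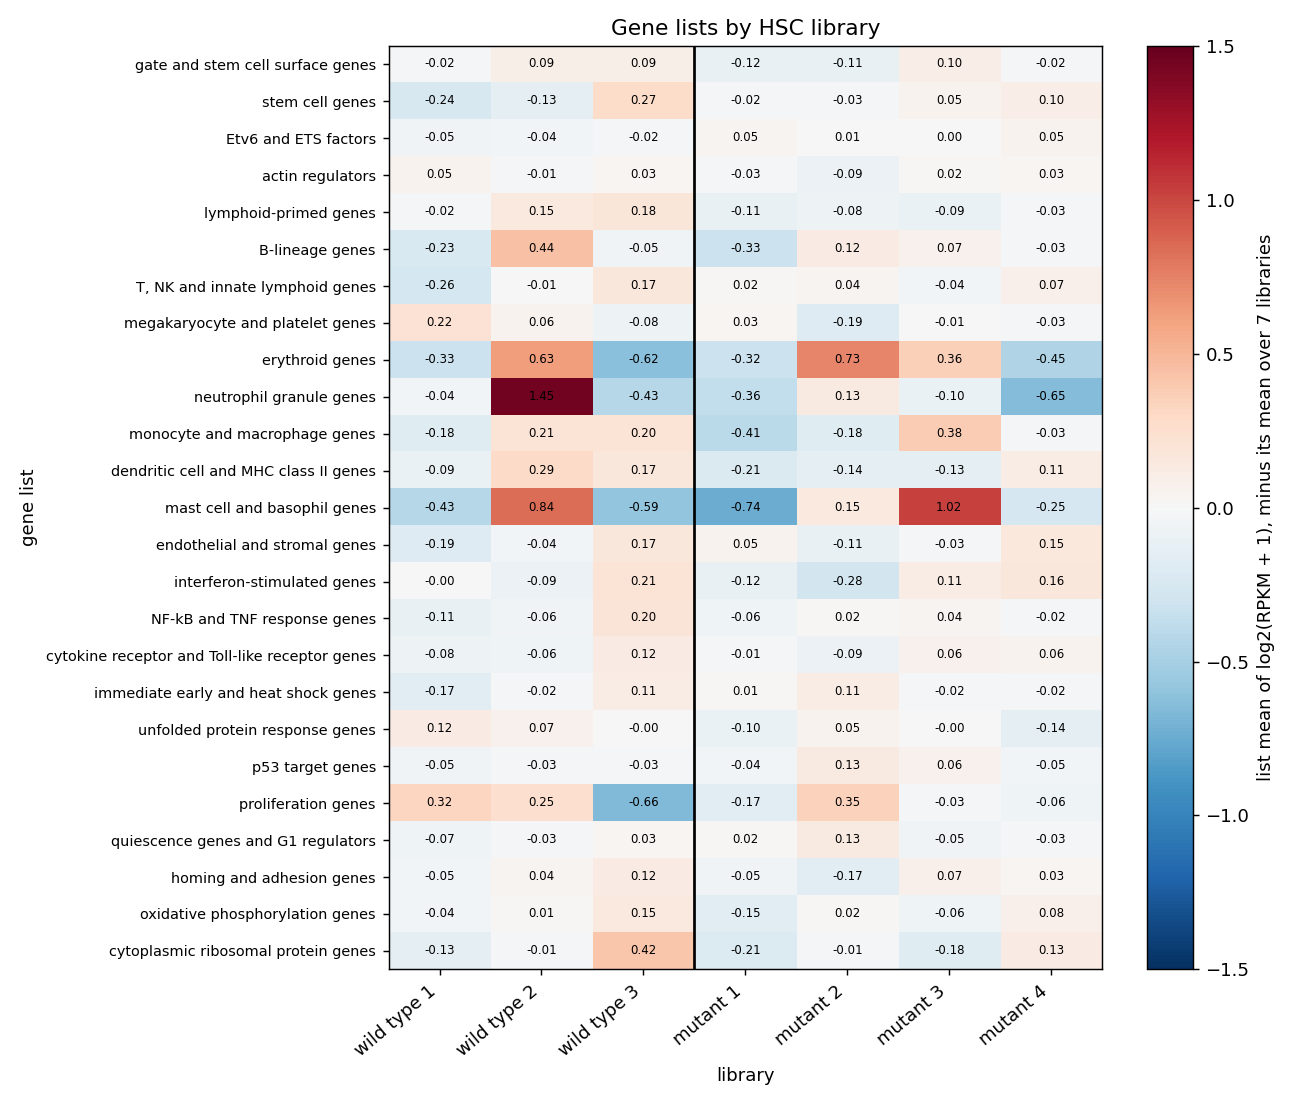
Mean log2(RPKM + 1) of each gene list in each HSC library, minus the list's mean over the 7 libraries (color and printed value), with the wild type left and the mutant right of the black line. Wild-type replicate 2 stands out for neutrophil genes, both replicates 2 for erythroid genes and wild-type replicate 3 for proliferation and ribosomal protein genes. The lymphoid-primed list overlaps between genotypes once Plac8 is taken out.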

How the data were processed

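RNA from sorted mouse bone marrow cells was sequenced after SMART-seq cDNA synthesis, per the labels' protocols. Reads were aligned with STAR to mm10, per the submitters' processing notes. The authors deposited 1 table of RPKM values for 11628 genes. Not given in the sources used here are STAR's version, the counting, the annotation, the strand setting, any scaling between libraries and the choice of genes. No counts could be recovered, so depth is unknown and no counting interval is given. In HSC, RPKM summed to 337818 to 372698 per library, and 10997 to 11236 genes reached 1 RPKM.

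Symbols turned into dates (16) were restored through Entrez identifiers, of which 11619 matched RefSeq GRCm38.p6. The 416 genes that did not reach 1 RPKM in 3 of the 7 HSC libraries were left out. Values were taken as log2(RPKM + 1), on which changes of low genes come out too small. In R 4.3.3, limma 3.58.1 with a variance trend fitted the group means of all 21 libraries (15 residual, 4.66 prior degrees of freedom). Contrasts were two-sided, with Benjamini-Hochberg adjustment over 11212 genes and a threshold of 0.05. The procedure was tested on simulated data. The members and lists were chosen with earlier results of these data known, so lists are described by counts and medians and carry no test. Named genes are the called genes, the 12 uncalled genes on each side with the smallest p whose genotypes do not overlap, Etv6, the gate genes, and up to 3 further members of each list with the smallest p; marker checks, paralogs and complex members of Gmfg, and genes of other lineages were added after their values were seen. A named gene is not reported here. Alternatives covered the libraries fitted, pseudocount, filter, scaling, library weights, sex, age, replicate number and leaving out each HSC library.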

Additional observations from a re-analysis of the deposited data

Results flagged for a closer look

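The effect of the mutation on Gmfg passed as different between HSC and CLP in the main fit. The difference of effects, HSC minus CLP, was -1.38 (limma adjusted p = 0.0263). In HSC 4 of 4 mutant libraries lay below all wild-type libraries, which does not bear on the comparison with CLP. The limma adjusted p of the difference of effects ranged from 0.00147 to 0.116 over the alternatives. It did not pass without mutant replicate 1, 2 or 3, without wild-type replicate 3, or with library weights.

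In Slc37a3, a member of the sugar phosphate exchanger family, mutant replicate 4 stood at 2.40 RPKM, away from the other 3 mutant libraries at 1.69 to 1.76 RPKM. In Aqp9, a water and glycerol channel, mutant replicate 2 stood at 16.9 RPKM, below the 21.5 to 21.7 RPKM of the other 3. These single libraries passed Dixon's criterion for 4 values; the criterion marks about 1 group in 20 by chance, and 67 genes were examined. Mutant replicate 2 is the library rich in globin RNA, and its part in the Aqp9 value was not tested.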

How the results depend on the processing

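Leaving out each HSC library in turn gave 2 to 7 called genes (0 to 2 higher, 1 to 6 lower) in place of 6 (1 higher, 5 lower). The HSC libraries fitted alone gave 0 called genes, 0 in either direction. Quantile normalization gave 14 (3 higher, 11 lower) and library weights 21 (11 higher, 10 lower), each of which kept all 6 genes. The weights gave wild-type replicate 2 the most (2.62) and wild-type replicate 3 the least (0.319). A mean of at least 5 RPKM left 0 higher genes because Matn4 was not tested, and terms for sex and age gave 2 higher genes. The effect differed between HSC and MPP4 for 0 to 1 genes when single libraries were left out and for 1 gene, Cnn3, with library weights. Between HSC and CLP it differed for 0 to 3 genes when single libraries were left out and for 0 with library weights. The Etv6 difference lay between -0.12 and -0.05 in every alternative. RPKM without depth gives no limit for low genes. Of the called genes, Matn4 and Sox18, both hardly present in MPP4 and CLP, depended most on the pseudocount. With a pseudocount of 0.1 their differences were larger (1.29 for Matn4 and -1.47 for Sox18). Their limma SE rose to 0.41 and 0.427, and neither was called.

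Replicate numbers 1, 2 and 3 are shared between the genotypes and match in labelled age and sex, though the mice differ. Same-numbered libraries deviated together only for number 2 (correlations of 0.01, 0.46 and -0.15 for numbers 1, 2 and 3). So few libraries cannot settle whether the numbers pair the samples, and the main fit did not pair them. With the replicate number as a block, 8 genes were called, the 6 and Myo7a and Smim6, and 2 genes, Gmfg and Plac8, differed between HSC and CLP. With the block in HSC alone, 0 were called, 0 higher and 0 lower.

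Differences of gate genes near 0 changed sign, and none was called. With single libraries left out, Cd34 ran from -0.0037 to 0.20, Flt3 from -0.21 to 0.015, Kit from -0.22 to 0.017 and Ly6a from -0.41 to 0.35. Flt3 was at 0.015 with the block in HSC alone and Ly6a at 0.14 with library weights; the cause was not tested.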
